A study of Mus musculus with 12 samples.

Results

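ISG15 is a small ubiquitin-like protein, and Uba7, Ube2l6 and Herc6 are the enzymes that attach it to other proteins. The transcripts of these 4 genes were followed in B16, an established mouse melanoma line, with and without the RNA-editing enzyme ADAR and with and without interferon-beta (IFNb). The genes were taken by symbol from a count table of 23336 symbols; all 4 were in it, and all 4 were among the 11561 genes with enough counts to be tested. There were 4 groups of 3 libraries: Adar-null IFNb, Adar-null vehicle, control IFNb and control vehicle. Adar-null cells had received Cas9 with 1 guide (Adar sgRNA 1), and control cells had received Cas9 with a guide that has no target (Non-targeting sgRNA 5). Both were transfected transiently and then subcloned, so the genotypes also differ as subcloned populations. IFNb was given at 1000 U/mL for 36 h, and the vehicle was buffered saline with albumin. The design text names a further arm with interferon-gamma, which was not analysed here. Separate cultures are not stated for the 3 libraries of each group, and the p-values therefore cover only the variation among these libraries.

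ISG15 is joined to its targets by a chain of enzymes like that of ubiquitin. Uba7, the activating enzyme (E1), charges ISG15 with energy from ATP and hands it to Ube2l6, the carrier (E2), and a ligase (E3) passes it on to lysines of other proteins. In mouse the main ligase is Herc6, and in human cells it is HERC5. The protease Usp18 takes ISG15 off again and also binds the interferon receptor and dampens its signal. All of these genes are known as interferon-stimulated genes, switched on by ISGF3, a transcription factor complex that includes Stat2 and Irf9 and binds interferon-stimulated response elements in promoters. ADAR converts adenosine to inosine in double-stranded RNA, and in its absence endogenous double-stranded RNA is known to engage the sensors MDA5 (Ifih1) and PKR (Eif2ak2).

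The promoters of Isg15 and Uba7 are shown because they hold letters of that element. They come from RefSeq on GRCm38.p6, the same assembly as the mm10 build the counts rest on. Each runs 5′ to 3′ on the gene's own strand from 250 bases before the annotated start to 50 bases into the gene. Capitals mark the matches described below them.
Isg15 promoter, chr4:156200769-156201068, minus strand: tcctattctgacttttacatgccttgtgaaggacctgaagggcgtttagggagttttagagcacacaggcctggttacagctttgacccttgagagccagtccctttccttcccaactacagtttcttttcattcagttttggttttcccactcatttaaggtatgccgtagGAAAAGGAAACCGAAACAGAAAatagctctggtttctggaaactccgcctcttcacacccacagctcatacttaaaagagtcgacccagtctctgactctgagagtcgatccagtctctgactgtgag
Uba7 promoter, chr9:107975317-107975616, plus strand: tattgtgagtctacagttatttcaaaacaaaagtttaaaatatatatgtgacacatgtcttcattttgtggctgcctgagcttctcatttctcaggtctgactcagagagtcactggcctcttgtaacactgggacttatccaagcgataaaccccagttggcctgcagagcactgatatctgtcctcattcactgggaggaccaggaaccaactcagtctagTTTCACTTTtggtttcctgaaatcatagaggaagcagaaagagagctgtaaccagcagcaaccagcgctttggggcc

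The element's core, GAAA repeated after any pair of bases, was searched on both strands. Isg15 held it 3 times on the sense strand, in overlapping copies at positions -78 to -69, -72 to -63 and -66 to -57, where -1 is the base before the start. Of 32851 RefSeq mouse promoters of this length, 1131 (3.44%) held at least 1 copy. Of the 35 other interferon-stimulated genes with an entry, from a list of 46, 17 held it. A gene was counted if any of its promoters matched, so this number and the share of promoters are unlike measures. Uba7, Ube2l6 and Herc6 had no match to it in these windows. A looser core, AAANNGAAA, was chosen after the sequences were seen and is the stricter one without its first letter. Uba7 held it once, on the antisense strand at -27 to -19, so the capitals in its sequence above show the complement. That looser core was in 10.6% of promoters and in 23 of the 35 interferon-stimulated genes, counted in the same unlike ways. The gamma-activated core TTCNNNGAA (8.3% of promoters) and its strict form TTCCNGGAA (1.15%), which is contained in it, matched none of the 4 windows. A match is a string of letters and was not tested for binding.

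The 4 genes lie on different chromosomes in GRCm38.p6. Isg15 is at chr4:156199424-156200818 on the minus strand, Uba7 at chr9:107975567-107984056, Ube2l6 at chr2:84798828-84810003 and Herc6 at chr6:57580992-57665136, all on the plus strand. The predicted genes Gm46878 and Gm19244 overlap Isg15 and Herc6. Neither predicted gene is in the count table, and the strand setting of the counting is not given in the sources used here, so reads of such overlaps cannot be told apart.

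Total counts per library ranged from 5375649 to 7153480, with 21.1% to 28.5% held by the ribosomal RNA precursor Rn45s. Levels below are CPM, counts relative to library size, after TMM scaling, which corrects library sizes for differences in composition. A group total of 3 counts, the floor used for detection, equals 0.157 to 0.173 CPM depending on the group. Adar had 408 ± 21.2 CPM in Adar-null IFNb, 59.5 ± 5.26 in Adar-null vehicle, 384 ± 7.47 in control IFNb and 72.2 ± 2.05 in control vehicle (mean ± SD, n = 3 each). Adar was lower in Adar-null vehicle than in control vehicle by -0.28 ± 0.06 on the log2 scale (adjusted p = 0.0017, edgeR), without overlap. Under IFNb the difference was 0.09 ± 0.05 (adjusted p = 0.0817), not called, though it was called with upper-quartile scaling, by limma-voom and without Adar-null IFNb replicate 3. Counts over the whole gene do not test a small deletion, so they do not check the genotype label. All 7 melanocyte markers were detected in each group. Their summed level was 10432 to 11147 CPM in Adar-null IFNb, 15254 to 15440 in Adar-null vehicle, 13362 to 13660 in control IFNb and 15641 to 16469 in control vehicle. The 10 leukocyte markers summed to at most 3.87 CPM in any library, with Cd3e, Ms4a1 and Nkg7 at 0 in every group. Cd68, the 1 marker of these with enough counts to be tested, was called higher with IFNb in both genotypes. Its mean was 2.57 CPM in Adar-null IFNb, 1.34 in Adar-null vehicle, 2.92 in control IFNb and 1.16 in control vehicle. In such bulk samples, fewer cells making a transcript and less RNA per cell cannot be told apart. The part of the melanocyte marker shift in the results below was not tested.

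Isg15, the modifier, was detected at a few counts a library without IFNb and at 1681 to 3159 counts a library with it. Its level was 446, 475 and 497 CPM in the 3 Adar-null IFNb libraries and 0.857, 1.38 and 0.713 CPM in the 3 Adar-null vehicle libraries. In control cells it was 299, 304 and 312 CPM with IFNb and 0.703, 0.825 and 0.903 CPM with vehicle. Every Adar-null IFNb library lay above every control IFNb library, as did 37% of all genes tested in that direction, while the vehicle libraries of the genotypes overlapped. The vehicle values rest on 5, 10 and 4 counts in Adar-null cells and 4, 5 and 5 counts in control cells.

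Uba7, the activating enzyme, had 29 to 64 counts in each vehicle library. With IFNb it reached 192, 184 and 179.6 CPM in Adar-null cells, against 9.94, 8.84 and 9.98 CPM with vehicle. The control cells had 135, 149 and 147 CPM with IFNb and 5.10, 7.09 and 5.78 CPM with vehicle. Adar-null libraries were higher than control libraries with no overlap under both treatments; in vehicle 10.5% of all genes were higher without overlap.

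Ube2l6, the carrier, was low in vehicle libraries. It stood at 179.5, 187 and 166 CPM in Adar-null IFNb and at 1.37, 1.93 and 2.85 CPM in Adar-null vehicle. Control IFNb libraries held 133, 116 and 115 CPM and control vehicle libraries 2.46, 2.97 and 2.17 CPM. The IFNb libraries of the genotypes were apart and their vehicle libraries overlapped, on 8 to 16 counts a library in Adar-null cells and 12 to 18 in control cells.

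Herc6, the ligase, differed most of the 4 between the genotypes under IFNb. Its level was 533, 521 and 545 CPM in Adar-null IFNb, against 31.4, 27.3 and 33.2 CPM in Adar-null vehicle. In control cells the values were 195, 206 and 198 CPM with IFNb and 26.2, 28.0 and 30.0 CPM with vehicle. All 3 Adar-null IFNb libraries were above all 3 control IFNb libraries, and the vehicle libraries overlapped.

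**Figure D1:**
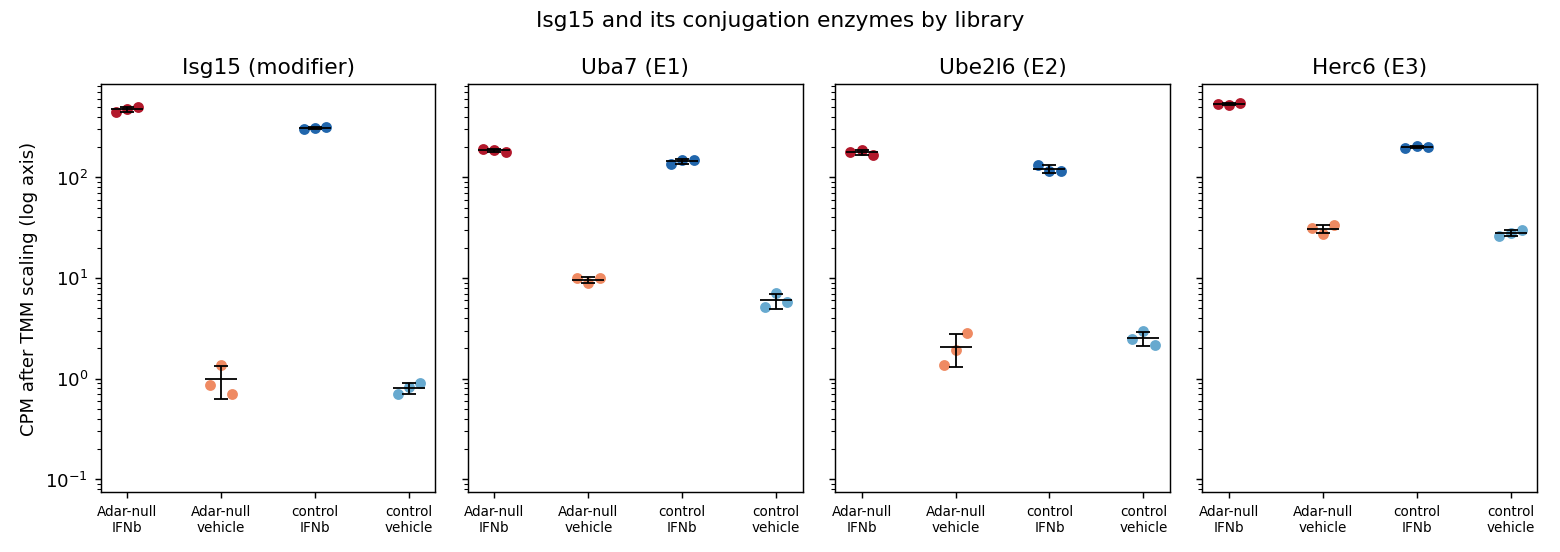
CPM after TMM scaling (log axis) of Isg15, Uba7, Ube2l6 and Herc6 in each library, with points for the 3 libraries of a group and a bar for the group mean. Adar-null IFNb libraries lie above control IFNb libraries for all 4 genes, from 166 to 187 against 115 to 133 CPM for Ube2l6 and from 521 to 545 against 195 to 206 CPM for Herc6.

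Levels of different genes can be set side by side only per length, and CPM were therefore divided by the length of each gene's merged GENCODE M21 exons (756 bp for Isg15, 3195 for Uba7, 1560 for Ube2l6 and 4767 for Herc6). With IFNb, Isg15 led in both genotypes, with 625 ± 34.0 CPM per kb in Adar-null cells and 404 ± 8.69 in control cells (mean ± SD, n = 3). In Adar-null IFNb, Ube2l6 (114 ± 6.76 CPM per kb) and Herc6 (112 ± 2.53) did not differ beyond their spread and Uba7 was lower (58.0 ± 1.97). In control IFNb, Ube2l6 came next (77.7 ± 6.75 CPM per kb). Uba7 (44.9 ± 2.45) had a higher mean than Herc6 (41.9 ± 1.18), with overlapping ranges of mean ± SD. The vehicle order was different. Herc6 led with 6.42 ± 0.625 CPM per kb in Adar-null vehicle and 5.89 ± 0.398 in control vehicle, and Uba7 followed with 3.0 ± 0.203 and 1.87 ± 0.317. Ube2l6 and Isg15 were lowest in Adar-null vehicle, at 1.32 ± 0.480 and 1.30 ± 0.465 CPM per kb, and did not differ beyond their spread there. In control vehicle Ube2l6 had 1.62 ± 0.260 CPM per kb, within its spread of Uba7, and Isg15 had 1.07 ± 0.133. The protease Usp18 had 451 ± 22.1, 0.694 ± 0.361, 191 ± 2.29 and 0.755 ± 0.362 CPM per kb in Adar-null IFNb, Adar-null vehicle, control IFNb and control vehicle.

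In Adar-null cells, IFNb raised all 4 transcripts. Differences are log2 fold changes with standard errors from the edgeR quasi-likelihood fit over all 12 libraries, and a gene is called when its p, adjusted by Benjamini-Hochberg over the 11561 genes, is under 0.05. Isg15 rose by 8.83 ± 0.33 (456-fold, adjusted p = 6.30e-102). Ube2l6 rose by 6.43 ± 0.24 (86.4-fold, adjusted p = 3.53e-79). Uba7 rose by 4.28 ± 0.11 (19.4-fold, adjusted p = 4.54e-78). Herc6 rose by 4.13 ± 0.07 (17.5-fold, adjusted p = 1.78e-92). Of all genes tested, 36.6% were called higher, 35.7% lower and 72.3% in either direction, with a median of 0.01, against a median of 5.36 for the 4 genes. The even split depends on the scaling. TMM gave 4232 higher and 4132 lower, and library size alone gave 3618 higher and 4672 lower (median -0.08).

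IFNb raised all 4 transcripts in control cells too. By the same test, Isg15 rose by 8.52 ± 0.39 (368-fold, adjusted p = 7.22e-95), Ube2l6 by 5.56 ± 0.22 (47.1-fold, adjusted p = 4.15e-70) and Uba7 by 4.58 ± 0.15 (23.8-fold, adjusted p = 4.92e-74). Herc6 rose by 2.83 ± 0.07, or 7.13-fold (adjusted p = 1.36e-70). Of all genes, 26.5% were called higher, 26.5% lower and 53% in either direction, and the median of the 4 genes was 5.07. Across all genes, 3067 were called higher and 3066 lower; with library size alone in place of TMM the split was 2469 higher and 3796 lower.

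Whether the response depended on genotype was tested as the interaction, the Adar-null response minus the control response. For Herc6 it was 1.30 ± 0.10 on the log2 scale (95% interval 1.10 to 1.49, adjusted p = 1.63e-23, edgeR). Ube2l6 had an interaction of 0.87 ± 0.33 (95% interval 0.23 to 1.52, adjusted p = 0.017). The Ube2l6 call rests on few vehicle counts and was lost without Adar-null vehicle replicate 1 (0.68, adjusted p = 0.0878) or without control vehicle replicate 2 (0.74, adjusted p = 0.0926). The interaction was not called for Isg15 (0.31, 95% interval -0.69 to 1.31, adjusted p = 0.629) or Uba7 (-0.30, 95% interval -0.66 to 0.06, adjusted p = 0.151). Isg15 had 4 to 10 counts in each vehicle library, which limits the precision of its interaction. Thus 2 of the 4 genes had a larger response in Adar-null cells. Of all genes, 28.6% were called higher, 30.7% lower and 59.3% in either direction. Of the 45 other interferon-stimulated genes tested, 21 were called higher and 2 lower (median 0.75). Among these 45, 9 had 0 counts in a vehicle group, which limits their interactions. With the 4 genes included, Herc6 ranked 13 and Ube2l6 20 of 49 from the largest interaction.

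**Figure D2:**
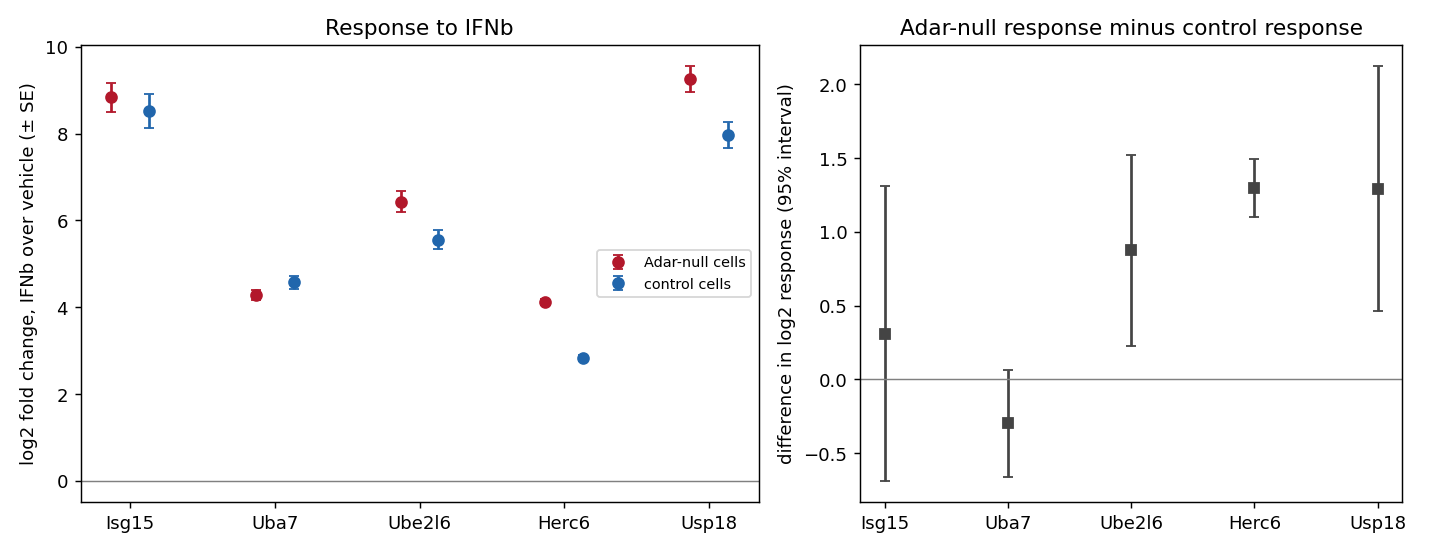
Left, log2 fold change of IFNb over vehicle with its standard error for the 4 genes and Usp18 in Adar-null and control cells; right, the difference between these responses with its 95% interval. Herc6 has a response of 4.13 in Adar-null and 2.83 in control cells, and its interval of 1.10 to 1.49 lies above 0, while the intervals of Isg15 and Uba7 include 0.

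Set directly against control cells under IFNb, Adar-null cells had more of all 4 transcripts. Herc6 was higher by 1.41 ± 0.05 (2.66-fold, adjusted p = 4.91e-55, edgeR). Isg15 was higher by 0.63 ± 0.04 (1.55-fold, adjusted p = 6.36e-26) and Ube2l6 by 0.55 ± 0.05 (1.47-fold, adjusted p = 1.23e-16). Uba7 had the smallest of the 4 differences, 0.36 ± 0.05 (1.29-fold, adjusted p = 2.88e-10). Of all genes, 36.4% were called higher in Adar-null IFNb and 72.6% in either direction. The share called lower was 36.2%. The median was 0.59 for the 4 genes and 0.02 for all genes. Among the 49 tested interferon-stimulated genes, the 4 included, Herc6 ranked 8, Isg15 24, Ube2l6 28 and Uba7 35 from the largest difference. In this comparison 0 of 7 melanocyte markers were called higher and 6 lower, with a median of -0.51.

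In vehicle, 1 of the 4 transcripts was called, where 2.47% of all genes were called higher, 4.05% lower and 6.51% in either direction. Uba7 was higher in Adar-null cells by 0.66 ± 0.18 (1.58-fold, adjusted p = 0.00775, edgeR). Its means were 9.59 ± 0.649 CPM in Adar-null vehicle and 5.99 ± 1.01 in control vehicle (SD, n = 3) and did not overlap. The call was lost without control vehicle replicate 1 (0.56, adjusted p = 0.0672). The other differences were not called. They were 0.32 for Isg15 (95% interval -0.68 to 1.32, adjusted p = 0.795), -0.32 for Ube2l6 (-0.96 to 0.32, adjusted p = 0.65) and 0.12 for Herc6 (-0.06 to 0.29, adjusted p = 0.529). The Isg15 interval includes a rise of the size seen for Uba7. The Ube2l6 interval does not include such a rise, though it includes a fall of that size.

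The counts of each enzyme were also divided by those of Isg15 in the same library, a ratio that scaling cannot move. Gene length was not corrected for, so the ratios compare the genotypes and not the levels of different genes. Per length, Herc6 was below Isg15 in both genotypes under IFNb. Under IFNb, Herc6 had 119%, 109.8% and 109.7% as many counts as Isg15 in Adar-null cells, and 65.3%, 67.7% and 63.4% in control cells. The mean log2 ratio, with 1 added to each count, was 0.17 ± 0.07 in Adar-null and -0.61 ± 0.05 in control cells (SD, n = 3), a difference of 0.79. The two-sided exact permutation p was 0.1, the smallest that 3 against 3 libraries allow. For Uba7 the ratio was lower in Adar-null cells in every library, -1.35 ± 0.13 against -1.09 ± 0.06, a difference of -0.26 (exact permutation p = 0.1). The Ube2l6 ratios overlapped, with -1.41 ± 0.15 in Adar-null and -1.34 ± 0.15 in control cells and a difference of -0.08 (exact permutation p = 0.6).

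**Figure D3:**
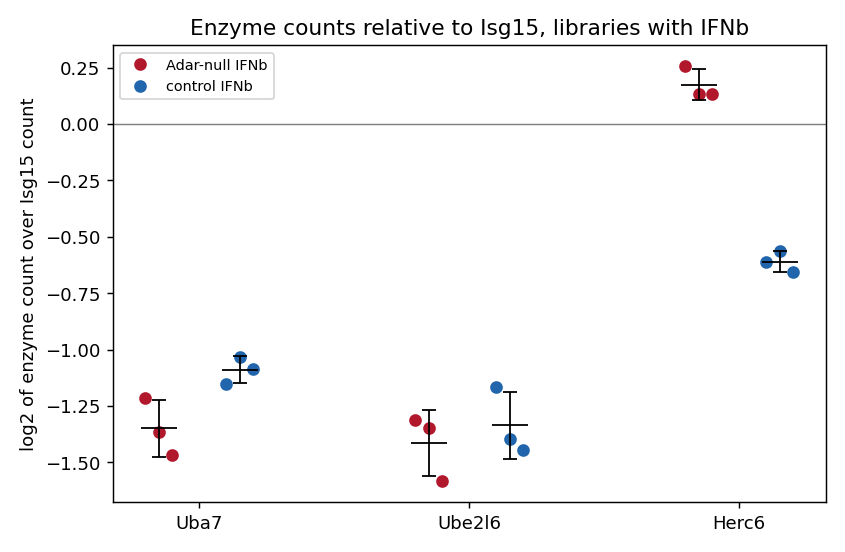
Log2 ratio of the counts of Uba7, Ube2l6 and Herc6 to those of Isg15 in each IFNb library, with points for libraries and a bar for the group mean. Herc6 lies above 0 in the Adar-null libraries (mean 0.17) and below 0 in the control libraries (mean -0.61), and the Ube2l6 libraries of the genotypes overlap. Counts were not divided by gene length, so 0 does not mark equal transcript levels.

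Usp18, the protease that removes ISG15, was higher in Adar-null than in control cells under IFNb. It had 799 ± 39.1 CPM in Adar-null IFNb, 1.23 ± 0.639 in Adar-null vehicle, 338 ± 4.06 in control IFNb and 1.34 ± 0.642 in control vehicle (SD, n = 3). It rose with IFNb by 9.26 ± 0.30 in Adar-null and 7.97 ± 0.30 in control cells, and was higher by 1.24 ± 0.04 in Adar-null IFNb than in control IFNb (adjusted p = 1.81e-47, edgeR). Its interaction was 1.29 ± 0.42 (adjusted p = 0.00541), lost without control vehicle replicate 3 (0.92, adjusted p = 0.132). Trim25, a ligase reported to act on ISG15 as well as on RIG-I, ran the other way: it was lower by -0.27 ± 0.05 in Adar-null IFNb than in control IFNb (adjusted p = 5.31e-06), at 127 ± 3.80 against 152 ± 1.73 CPM. It was also lower in Adar-null vehicle, by -0.89 ± 0.20 (adjusted p = 5.57e-04), at 4.48 ± 1.27 against 8.56 ± 0.498 CPM in control vehicle. Its response to IFNb was 4.78 ± 0.16 in Adar-null and 4.15 ± 0.12 in control cells.

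Arih1, the other ligase on the list, rose by 0.30 ± 0.05 with IFNb in Adar-null cells (adjusted p = 3.18e-08) and was not called in control cells (-0.07, adjusted p = 0.246), where it was called lower with library size alone (-0.14, adjusted p = 0.0136). Among proteases with reported activity on ISG15, Usp2 rose by 2.54 ± 0.14 in Adar-null and 1.13 ± 0.14 in control cells. Usp14, a proteasome-bound protease, rose by 0.70 ± 0.07 in control cells and was 0.05 ± 0.07 in Adar-null cells (not called). Usp16, which acts on histone H2A, rose by 0.40 ± 0.08 in Adar-null cells and was -0.06 ± 0.08 in control cells (not called). Of the 8 tested genes of this list of 9, 4 were higher and 2 lower in Adar-null IFNb against control IFNb (median 0.14). The response was higher for 5 and lower for 1 in Adar-null cells (median 0.35), and higher for 4 and lower for 0 in control cells (median 0.38), the 0 holding at an unadjusted p under 0.05 and by DESeq2 and limma-voom. The 1 that was lower, Usp21 (-0.20, adjusted p = 0.0463), was named after its value was seen, and the lower count was 0 under several alternatives, DESeq2 among them.

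The activating and carrier enzymes of other modifiers were called in both directions with IFNb. So were genes in general (36.6% higher and 35.7% lower of all genes in Adar-null cells, 26.5% each way in control cells). The activating enzymes of other modifiers gave 5 called higher and 3 lower of 9 in Adar-null cells (median 0.32), and 3 higher and 1 lower in control cells (median 0.04). Uba1, the main ubiquitin E1, fell by 0.19 ± 0.04 with IFNb in Adar-null cells and rose by 0.16 ± 0.04 in control cells. Uba6, the second ubiquitin E1, rose by 0.32 ± 0.09 in Adar-null and by 0.53 ± 0.09 in control cells. In Adar-null IFNb against control IFNb, 3 of the 9 were higher and 4 lower. Sae1 and Uba2, the pair that activates SUMO, were lower by -0.92 ± 0.05 and -0.75 ± 0.05, while Uba3, the catalytic subunit of the NEDD8 E1, was higher by 0.57 ± 0.06.

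Among 34 carrier enzymes of other modifiers, 10 were higher and 14 lower with IFNb in Adar-null cells (median -0.15). In control cells 6 were higher and 10 lower (median -0.14), and 2 higher and 17 lower with library size alone. Ube2l3, the nearest paralog of Ube2l6, fell by 0.30 ± 0.06 in Adar-null cells and was -0.09 ± 0.05 in control cells, a value called only with upper-quartile scaling or library size alone. Ube2l3 was 88.8 ± 4.49 CPM in Adar-null IFNb, 110 ± 5.57 in Adar-null vehicle, 113 ± 5.76 in control IFNb and 121 ± 4.0 in control vehicle. Of the 34, 11 were higher and 11 lower in Adar-null IFNb against control IFNb. The most negative were Ube2c (-3.15 ± 0.24) and Ube2s (-1.42 ± 0.32), the carriers of the anaphase-promoting complex, and Ube2t (-2.66 ± 0.30), the carrier of the Fanconi anemia pathway. Atg10, a carrier in autophagy, was higher by 1.20 ± 0.20, at 10.2 ± 1.82 CPM in Adar-null IFNb and 4.45 ± 0.780 in control IFNb. Its vehicle levels were 9.68 ± 0.884 CPM in Adar-null and 10.7 ± 0.492 in control cells, so control IFNb was the group that stood apart.

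The HERC family apart from Herc6 has 4 genes, all tested. With IFNb, 3 were higher and 0 lower in Adar-null cells (median 0.23), and 1 was higher and 0 lower in control cells (median 0.09), or 2 higher without control IFNb replicate 3 or control vehicle replicate 1. In both genotypes the count of lower HERC genes was also 0 at an unadjusted p under 0.05 and by DESeq2 and limma-voom. Herc3 was that one, with a rise of 0.50 ± 0.10, and its value in Adar-null cells was 0.11 ± 0.11 (not called). Herc2 rose by 0.26 ± 0.05 in Adar-null cells. Of the 18 tested among 19 genes for ubiquitin and other ubiquitin-like modifiers, 9 were higher and 4 lower in Adar-null cells (median 0.11), and 5 higher and 4 lower in control cells (median 0.04). Ubb, a polyubiquitin gene, rose by 1.03 ± 0.08 in Adar-null and 0.53 ± 0.09 in control cells; ubiquitin genes share near-identical repeats, so its counts are uncertain. Gabarapl1, a modifier of autophagosome membranes, rose by 1.13 ± 0.06 in Adar-null cells and fell by 0.16 ± 0.06 in control cells. Nedd8, the modifier of cullins, fell by 0.60 ± 0.10 in Adar-null cells and rose by 0.20 ± 0.09 in control cells.

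**Figure D4:**
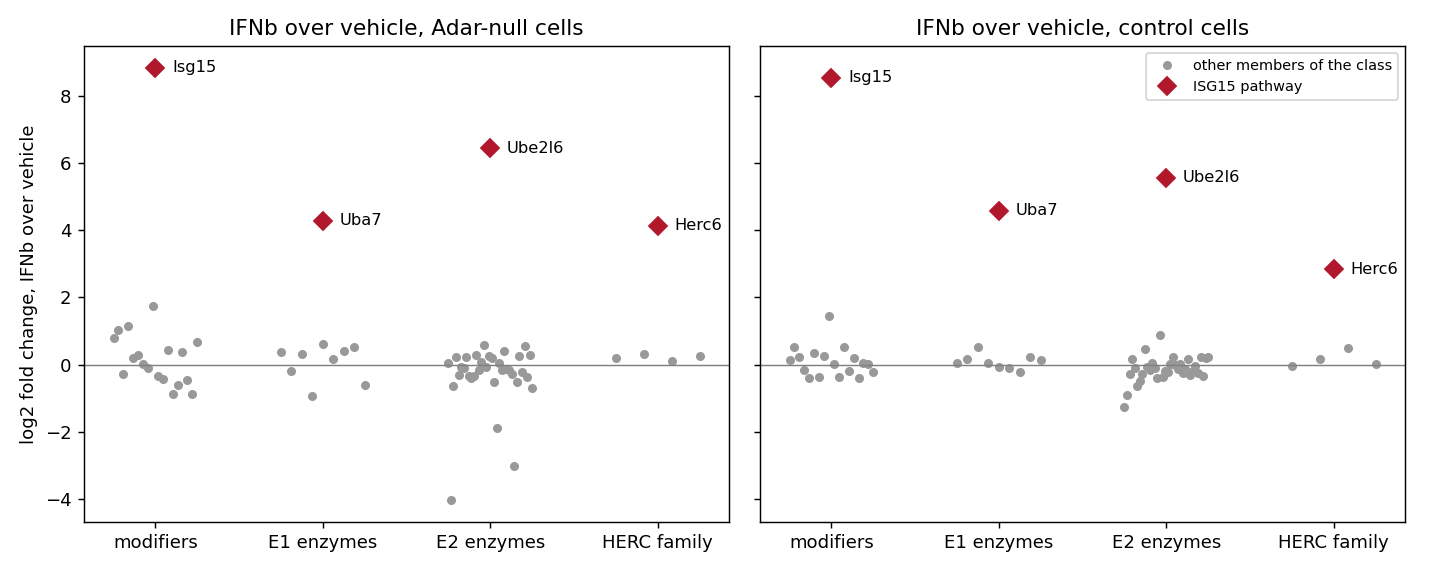
Log2 fold change of IFNb over vehicle in Adar-null (left) and control cells (right) for the 4 genes (red diamonds) beside the other tested members of their classes (grey points): modifiers, E1, E2 and HERC ligases. Isg15, Uba7, Ube2l6 and Herc6 lie at 8.83, 4.28, 6.43 and 4.13 in Adar-null cells, and no grey point lies as high as any red diamond in either panel.

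Proteins reported to carry ISG15 were followed as transcripts too. In Adar-null IFNb against control IFNb, 8 of 19 were higher and 10 lower (median -0.11), where 36.4% of all genes were higher and 36.2% lower. The antiviral GTPase Mx1 was higher by 3.43 ± 0.05, the RNA-binding Ifit1 by 1.11 ± 0.04 and the sensor Ifih1 by 0.99 ± 0.04. Cyclin D1 (Ccnd1) was lower by -2.98 ± 0.06, with 42.9 ± 4.11 CPM in Adar-null IFNb against 339 ± 7.18 in control IFNb, and the replication clamp Pcna by -2.41 ± 0.09. Ccnd1 fell by 1.10 ± 0.07 with IFNb in Adar-null cells and rose by 1.77 ± 0.05 in control cells.

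Stat2 and Irf9, subunits of ISGF3, rose in both genotypes. In Adar-null and control cells, Stat2 rose by 5.44 ± 0.12 and 4.44 ± 0.15, and Irf9 by 5.38 ± 0.18 and 5.15 ± 0.21. Between the genotypes under IFNb, Stat2 was higher in Adar-null cells by 1.45 ± 0.05 and Irf9 by 0.50 ± 0.06. The receptor subunit Ifnar1 was lower in Adar-null IFNb, by -0.54 ± 0.06. Of the 7 tested receptor and ISGF3 genes, 3 were higher and 2 lower in this comparison (median -0.07), or 1 lower under DESeq2 or upper-quartile scaling and without Adar-null IFNb replicate 1 or control IFNb replicate 1. All 45 tested genes of the interferon-stimulated list of 46 rose with IFNb in each genotype. Their median response was 7.44 in Adar-null cells (7.35 with the 6 genes at 0 in vehicle set to their bound) and 6.92 in control cells, which the 4 genes at 0 did not move. In Adar-null IFNb against control IFNb, 37 of the 45 were higher and 7 lower (median 0.61). In vehicle 0 were called higher by edgeR, DESeq2 or limma-voom (3 at an unadjusted p under 0.05) and 1, the secreted glycoprotein Lgals3bp, was lower by -0.24 ± 0.05. For the activating enzymes, modifiers, HERC genes, reported substrates and receptor genes of the lists, 0 were called in vehicle by edgeR, DESeq2 or limma-voom. At an unadjusted p under 0.05 there were 1 higher and 0 lower activating enzymes, 1 and 1 modifiers, 0 and 0 HERC genes, 2 and 1 substrates, and 1 and 1 receptor genes. Of the carriers 0 were higher (2 at an unadjusted p under 0.05) and 2 lower by edgeR, Ube2v2 (-0.59 ± 0.14) and Ube2z (-0.15 ± 0.05), and both calls were lost under alternatives.

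The genes whose pattern was most like that of each member were found by the Euclidean distance between log2 CPM over the 12 libraries, each gene centred on its own mean. These distances describe libraries that share treatment and depth. The log2 CPM used a prior count of 2, which sets the value of a gene at or near 0 counts. Isg15 was nearest to Oas1a (distance 0.649), Ifi203 (0.791) and Trim30d (0.883), all with close relatives in the genome whose reads may be divided among copies. Ifi203 had 112 ± 9.41 CPM in Adar-null IFNb and 67.9 ± 3.97 in control IFNb, and 0 counts in the 6 vehicle libraries. Trim30d was also at 0 CPM in both vehicle groups, and Oas1a had 1 count in Adar-null vehicle and 0 in control vehicle. The vehicle values of these genes therefore rest on the prior count. Uba7 was nearest to the ubiquitin ligase gene Dtx3l (0.836) and its partner Parp9 (1.03). Dtx3l rose by 4.70 ± 0.09 in Adar-null and 4.20 ± 0.09 in control cells. Ube2l6 was nearest to Ifih1 (0.816), F830016B08Rik (0.992) and the immunity-related GTPase gene Ifi47 (1.07). F830016B08Rik was at 0 CPM in both vehicle groups as well. Herc6 was nearest to Tor3a (0.615), the zinc-finger gene Znfx1 (0.621) and Cd274 (0.859), which encodes PD-L1. Tor3a rose by 4.03 ± 0.07 in Adar-null and 2.46 ± 0.08 in control cells. Cd274 rose by 4.47 ± 0.15 and 2.51 ± 0.17, with 117 ± 2.44 CPM in Adar-null IFNb, 5.25 ± 0.279 in Adar-null vehicle, 27.5 ± 0.920 in control IFNb and 4.79 ± 0.535 in control vehicle. Among the 4 genes themselves, Uba7 and Herc6 were nearest to each other by distance (2.16), and Isg15 and Herc6 were farthest apart (8.46). This distance also reflects the size of the IFNb response. By Pearson correlation over the 12 libraries, Uba7 and Herc6 had the lowest value of these pairs (0.971). The values of Herc6 with Isg15 (0.972) and with Ube2l6 (0.972) were close to it. Isg15 and Ube2l6 had the highest correlation (0.994).

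The nearest tested genes on each side were read from the same fit. Beside Isg15, AW011738 (2465 bp away) rose by 3.97 ± 0.26 in Adar-null and 2.39 ± 0.26 in control cells, and was higher by 1.37 ± 0.13 in Adar-null IFNb than in control IFNb. Agrn, which encodes the matrix proteoglycan agrin and lies 1890 bp from Isg15 on the other side, rose by 0.77 ± 0.05 and 0.79 ± 0.05. Beside Herc6, Ppm1k (45439 bp away), a mitochondrial phosphatase gene, rose by 2.22 ± 0.10 in Adar-null and 0.67 ± 0.11 in control cells. Lancl2 (37318 bp away) rose by 0.32 ± 0.07 in Adar-null cells and was -0.03 ± 0.07 in control cells (not called). Beside Uba7, Traip (3296 bp away), a ubiquitin ligase gene of replication, fell by 2.61 ± 0.24 in Adar-null cells and was 0.12 ± 0.14 in control cells (not called). Ip6k1 (18591 bp away) rose by 0.77 ± 0.05 in Adar-null cells and was 0.10 ± 0.05 in control cells (not called). Beside Ube2l6, Timm10 (17017 bp away) rose by 0.47 ± 0.16 in Adar-null cells, a call lost in 1 of the alternatives, and Ypel4 (60172 bp away) was not called in either genotype.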

How the data were processed

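The deposited table holds raw read counts per gene symbol, whole numbers with no normalization by the authors (checked on the values). Per the submitters' processing notes, bcl2fastq 2.19.1, Trimmomatic 0.33, Bowtie2 2.2.4, HTSeq 0.6.1p1, DESeq2 and the mm10 build were used. The annotation and the settings, strand included, were not given in the sources used here. Per the labels' protocols, libraries were directional, ribosome-depleted and paired-end. Counts of replicates differed beyond sampling noise in every pair (chi-square per degree of freedom 1.48 to 3.31), so none was merged.

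Genes were filtered with filterByExpr by group, scaled by TMM and tested with the edgeR 4.0.16 quasi-likelihood test (R 4.3.3, robust, 1 term per group, 12 libraries), with Benjamini-Hochberg adjustment within each of 5 comparisons and a threshold of 0.05. The common biological coefficient of variation was 0.0397. Standard errors and 95% intervals come from the fitted variance, kept at or above counting error. Floors and intervals cover counting error and the spread of these libraries only. The procedure was run on simulated counts with a small set of changed genes, each well above the floor. That setting held neither a response as broad as that to IFNb nor changed genes at few counts. It therefore does not check those cases. Ratios to Isg15 used exact two-sided permutation tests. Alternatives used DESeq2 1.42.0, limma 3.58.1, other scalings and filters, left-out libraries and a replicate term. Ube2d2a and Adgre1 were found under the older symbols Ube2d2 and Emr1.

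The members and gene lists were chosen with earlier results of these data known. Named genes are the 4 members, Adar, Ube2l3, Usp18, Trim25, Arih1, Uba1, Stat2 and Irf9, up to 4 called genes with the largest change per list and comparison, the 3 genes nearest in pattern to each member, and the nearest tested genes on each side. Some genes that this rule names are not reported here.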

Additional observations from a re-analysis of the deposited data

Results flagged for a closer look

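Responses to IFNb that differed between Adar-null and control cells, by the interaction term of the edgeR fit with a Benjamini-Hochberg adjusted p under 0.05, are given here as the Adar-null response minus the control response on the log2 scale. Among the 4 genes these were Herc6 (1.30) and Ube2l6 (0.87). Among ligases and proteases of ISG15 they were Usp2 (1.41), Usp18 (1.29), Trim25 (0.63), Arih1 (0.36) and Usp14 (-0.64).

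Among the other HERC genes the values were 0.26 for Herc2, 0.25 for Herc1 and -0.38 for Herc3. Among activating enzymes they were 0.63 for Uba3, -0.35 for Uba1, -0.74 for Uba2 and -0.96 for Sae1. Among carriers they were 1.33 for Atg10, -0.21 for Ube2l3, -2.12 for Ube2s, -2.69 for Ube2t and -3.13 for Ube2c. Among modifiers they were 1.30 for Gabarapl1, 0.88 for Map1lc3a, 0.78 for Gabarap and -0.79 for Nedd8.

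Among interferon-stimulated and signalling genes, the values were 2.85 for Mx1, 2.08 for Gbp2, 1.43 for Ifit1, 1.01 for Stat2, 0.36 for Adar and -0.45 for Ifnar1. Of the reported ISG15 substrates, Pcna had -2.28 and Ccnd1 -2.87. Oasl1 (4.21) and Sp100 (4.43) had 0 counts in Adar-null vehicle and 2 and 3 counts in control vehicle, so their fitted values depend on the prior count and are no bounds. The calls of Oasl1, Sp100, Ifit1, Usp18, Herc1, Herc3 and Ube2l3 were each lost under at least 1 alternative. None of these differences was weighed for a cause.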

How the results depend on the processing

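Of the alternatives for the 4 genes, the ratios and the counts of genes called, 533 were taken as unchanged. A further 4 moved the count of genes called in vehicle, 3 reversed a sign and 3 ended a call. For tests of the 4 genes, unchanged meant the same direction and side of the threshold. Ratios and counts of genes called had no adjusted p, so that threshold does not apply to them. Smaller changes of a count were taken as unchanged. The vehicle comparison called 753 genes, 293 by the DESeq2 Wald test, and 308 to 801 with 1 library left out (308 without control vehicle replicate 2, 393 without Adar-null vehicle replicate 1, 463 without Adar-null vehicle replicate 2). With 1 library left out, the interaction of Ube2l6 was 0.68 to 1.14, the vehicle difference of Uba7 0.56 to 0.81 and that of Isg15 -0.041 to 0.49, negative without Adar-null vehicle replicate 2. The Ube2l6 to Isg15 ratio difference was -0.13 to 0.0069, positive without Adar-null IFNb replicate 3 (0.0063) or control IFNb replicate 1 (0.0069).

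Values near 0 changed sign. Uba1 in vehicle was 0.00712 with DESeq2 size factors, 0.00782 with upper-quartile scaling, 0.00516 by DESeq2, 0.00039 by limma-voom, 0.0066 without Rn45s and 0.00208 with only the groups compared, and -0.01406 to 0.02443 with 1 library left out. With 1 library left out, Usp18 in vehicle was -0.59 to 0.32 and Ypel4 in Adar-null IFNb against control IFNb -0.073 to 0.79. Of the named genes' alternatives, 56 ended a call and 8 gave one, in 20 of 202 results, and 54 list counts moved by over 1.5 times, most from counts of 1 or 2; the cause was not tested.

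No link between equal replicate numbers was seen. Same-numbered libraries had correlations of -0.10 to 0.06 over 18 pairs, against -0.10 to 0.10 over 36 differently numbered pairs. Of 12 libraries, 2 correlated best with their own number. Whether equal numbers share a culture or preparation cannot be told from these values. With the replicate block, 711 genes were called in vehicle, the Herc6 interaction was 1.30, and no call of the 4 genes changed. Vehicle counts of Isg15 and Ube2l6 limit what can be seen there.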
